A study of Homo sapiens with 26 samples.

Results

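The 54 genes described here cover the subunits of respiratory complexes II, III, IV and V, with their isoforms. They include 4 copies of subunit genes and 5 genes named for an assembly or accessory role. They were taken by symbol from the gene tables, as SDHA to SDHD, CYC1 and every symbol without a hyphen that begins with UQCR, UQCC, COX4 to COX8 or ATP5, and they are 54 of the 26485 genes listed. Complex II has 4 of them, complex III 14, complex IV 17 and complex V 19. By symbol the complex V genes include ATP5S and ATP5SL, now DMAC2L and DMAC2, which were not classed as subunits. Both are counted in the complex V values below. The RNA came from KELLY, a human MYCN-amplified neuroblastoma cell line. In culture, KELLY cells carried the empty lentiviral vector F1HUTG (EV) or that vector with 1 of 2 hairpins against RUNX1T1, sh4 or shAMB, and each line was given doxycycline, which switches the hairpin on, or the solvent DMSO for 72 h, in 3 libraries per group. In vivo, 4 tumours labelled WT and Control Food and 4 tumours labelled RUNX1T1 KO and Doxycycline Food were grown from KELLY cells in mice. "KO" is the label's word: by the study's methods the tumours carried the inducible hairpin named shAMB in the labels, in immunodeficient NSG hosts, and no allele was deleted. The labels name 1 culture line per construct, so line and hairpin cannot be told apart. All doxycycline groups share the drug, which in culture is given to the EV line too. No tumours of the EV line were among the libraries, so in the tumours drug and hairpin cannot be told apart. No label says that replicates came from separate transductions, so p-values measure the spread between these libraries.

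As background, complexes II to IV pass electrons along the inner mitochondrial membrane. Complex II (succinate dehydrogenase) takes them from succinate to ubiquinone, complex III (the cytochrome bc1 complex) passes them from ubiquinol to cytochrome c, and complex IV (cytochrome c oxidase) passes them to oxygen. Complexes III and IV pump protons as they do so, and complex V (ATP synthase) lets the protons back through its rotor of c subunits to make ATP. Complex II is built from nuclear genes alone, whereas a few core subunits of the other 3 complexes are encoded in mitochondrial DNA. Those mitochondrial genes, 6 on the list used here, were not in the tables, so the values below cover the nuclear part of each complex.

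The stretches upstream of 5 member genes are shown as examples from the contrasts below. SDHB was called lower with shAMB and in the tumours and not with sh4, and COX5B with sh4 and in neither of the others. COX8A moved in opposite directions with the hairpins, and UQCRH and ATP5H fell in all 3 settings. These calls are those made without removing the trends in gene length and GC content described below. Each stretch is the exon-free part of the 250 bases before the start of the gene, from RefSeq on GRCh38.p14. It runs 5′ to 3′ on the gene's strand. Matches to the letters GCGCANGC (the NRF1 motif) or CCGGAAG (the core motif of GABPA and other ETS factors), on either strand, are in capitals.
SDHB: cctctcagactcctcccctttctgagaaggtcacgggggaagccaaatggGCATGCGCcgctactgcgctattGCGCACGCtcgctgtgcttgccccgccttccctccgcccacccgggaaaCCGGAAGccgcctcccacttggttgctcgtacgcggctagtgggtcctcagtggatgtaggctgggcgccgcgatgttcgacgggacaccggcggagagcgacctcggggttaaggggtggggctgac
UQCRH: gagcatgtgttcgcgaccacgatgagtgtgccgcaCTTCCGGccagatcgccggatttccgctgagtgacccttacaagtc
COX5B: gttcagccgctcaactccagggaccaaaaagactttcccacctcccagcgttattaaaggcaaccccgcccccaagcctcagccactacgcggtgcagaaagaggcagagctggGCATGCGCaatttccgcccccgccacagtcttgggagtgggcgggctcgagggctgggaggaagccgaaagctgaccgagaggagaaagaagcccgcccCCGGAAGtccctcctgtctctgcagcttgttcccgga
COX8A: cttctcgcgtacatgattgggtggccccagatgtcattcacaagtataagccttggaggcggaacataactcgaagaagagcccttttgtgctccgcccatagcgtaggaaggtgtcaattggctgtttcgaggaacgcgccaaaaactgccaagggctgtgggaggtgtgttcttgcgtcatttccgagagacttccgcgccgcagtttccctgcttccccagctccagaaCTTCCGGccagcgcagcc
ATP5H: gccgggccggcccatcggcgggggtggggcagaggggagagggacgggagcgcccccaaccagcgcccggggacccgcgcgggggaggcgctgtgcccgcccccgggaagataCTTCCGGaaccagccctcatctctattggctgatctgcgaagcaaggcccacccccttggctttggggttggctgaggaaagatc
They lie at chr1:17054033-17054282 on the minus strand (SDHB, 2 NRF1 matches and 1 ETS match), chr1:46303617-46303697 on the plus strand (UQCRH, 1 ETS match), chr2:97645812-97646061 on the plus strand (COX5B, 1 match of each), chr11:63974370-63974619 on the plus strand (COX8A, 1 ETS match) and chr17:75046986-75047183 on the minus strand (ATP5H, now ATP5PD, 1 ETS match, ending 16 bases before the start). In the 300-base windows around the starts, 17 of the 34 tested members with a promoter entry (50%) held the NRF1 letters, against 21.2% of the 11616 tested genes with an entry and 12.5% of 27305 promoters. The ETS letters stood in 14 members (41.2%), against 18.3% of tested genes and 10.7% of promoters. The YY1 motif AAGATGGC was in 6 members (17.6%), against 5.11% and 3.03%, and the MYC and MAX E-box CACGTG in 4 (11.8%), against 10.1% and 7.43%. All 5 stretches shown hold the ETS letters, so they do not stand for the members at large. ATP5E, COX5A and COX7C, called lower in all 3 settings, held no match to any of these motifs. Neither did COX7A2L, called in opposite directions with the hairpins. A match is a description of letters and not of binding.

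The 26 libraries held 35115915 to 62378060 expected counts each. RUNX1T1 RNA, the target of the hairpins, did not check the labels: it was 33.3 to 35.0 CPM (counts per 1000000 TMM-scaled counts) in uninduced and 30.1 to 33.9 CPM in induced sh4 libraries, 39.9 to 42.0 and 41.3 to 44.1 CPM with shAMB, and 30.0 to 43.1 CPM in control and 24.3 to 35.2 CPM in KO tumours. The log2 changes of RUNX1T1 were -0.11 ± 0.05 (SE; adjusted p = 0.117), 0.06 ± 0.05 (adjusted p = 0.378) and -0.23 ± 0.15 (adjusted p = 0.229) by edgeR's quasi-likelihood test with Benjamini-Hochberg adjustment. With each library's trends in gene length and GC content taken out, those of sh4 and of the tumours passed the test (RUNX1T1 -0.30, adjusted p = 0.000978, and -0.34, adjusted p = 0.0188). That of shAMB did not (0.12, adjusted p = 0.101). Without that step, the RUNX1T1 change with shAMB was higher than that in EV (0.21, adjusted p = 0.0353). RUNX1T1 was also lower in uninduced sh4 than in uninduced EV (-0.29, adjusted p = 0.0144). With the trends taken out neither difference was called (0.19, adjusted p = 0.0918, and -0.13, adjusted p = 0.216). The groups are therefore those labelled as such. The 6 neuroblastoma markers HAND2, GATA3, ISL1, TH, DBH and CHGA were present in every group at a summed 1395 to 3140 CPM. Of the other cell types, fibroblast markers summed to 48.5 to 131 CPM, with PDGFRB the highest gene in every group. Endothelial markers summed to 0.558 to 2.25 CPM, leukocyte markers to 0.641 to 2.65 CPM and skeletal muscle markers to 0.0802 to 3.82 CPM. Adipocyte markers stayed at or under 1.60 CPM and erythroid markers at or under 0.0250 CPM. Some of these low sums moved with the groups without overlap. Muscle markers went from 0.171 to 0.256 CPM up to 0.331 to 0.564 CPM with sh4 and from 0.0802 to 0.148 CPM up to 0.649 to 0.992 CPM with shAMB. There ACTA1 was called higher (1.85 and 3.82) and MYH1 and MYH2 were at 0. In the tumours ACTA1 was called higher too (2.74), but the muscle sums overlapped, at 0.745 to 3.82 CPM in controls and 1.88 to 2.55 CPM in KO tumours. MYH1 was the highest muscle marker in the controls (0.533 CPM). Leukocyte markers went from 0.641 to 0.776 CPM up to 1.40 to 2.22 CPM with shAMB and from 1.09 to 1.63 CPM up to 1.73 to 2.65 CPM in the tumours, mostly CD68, with C1QA at 0 in culture. Adipocyte markers stood at 0.197 to 0.552 CPM in control and 0.889 to 1.60 CPM in KO tumours, mostly LEP. Endothelial markers summed went from 2.07 to 2.25 CPM down to 1.01 to 1.16 CPM with sh4 and from 1.53 to 2.01 CPM down to 0.717 to 0.762 CPM with shAMB. The highest of them was KDR in uninduced shAMB (1.70 CPM) and CDH5 in induced shAMB (0.339 CPM). Of the 2 endothelial markers tested, 1 was called lower and 1 higher with shAMB, and 1 lower and 0 higher with sh4. The part of such cells in the members' values was not tested. In bulk RNA, fewer cells of a type and less RNA per cell cannot be told apart. Libraries of 1 group differed in their GC trend: the log2 gap between the 20% of genes richest and the 20% poorest in GC, relative to the gene means, ran from -0.52 to 0.60 in induced sh4, from -0.75 to -0.36 in uninduced and 0.16 to 0.68 in induced shAMB, and from -0.65 to 0.69 in KO tumours. Small RNAs took 6.96 to 18.2% of counts in the tumours and 0.737 to 1.57% in culture.

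Among the complex II to V genes tested on the counts, lower calls outnumbered higher ones after induction of either hairpin and in the KO tumours, and 1 gene was called in the EV line given doxycycline. Together the 54 genes made up 0.746 to 0.8% of scaled counts in the 9 uninduced culture libraries and 0.780 to 0.792% in EV with doxycycline. With sh4 and shAMB induced they made up 0.600 to 0.664%. In the tumours they made up 0.482 to 0.643% of the controls and 0.451 to 0.514% of the KO libraries, where the ranges overlap through control replicate 2. The filter on low counts was passed by 46 members in culture (4, 13, 12 and 17 of complexes II to V) and 49 in the tumours (4, 14, 13 and 18). A gene is called below where edgeR's quasi-likelihood test gave an adjusted p under 0.05 over all genes tested.

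With sh4, 33 of the 46 members were lower and 1 was higher after doxycycline, in a comparison that called 18% of all 14905 genes lower and 22.9% higher. With shAMB, 27 were lower and 4 higher, against 28.4% of all genes lower and 37.6% higher. In the tumours, 22 of 49 were lower and 1 higher, against 19.9% and 21.2% of 15960 genes. In the EV line, 1 member (UQCRFS1) was lower and none was higher, against 0.0805% and 0.0134% of all genes. There edgeR gave 3 members an unadjusted p under 0.05, and DESeq2 called 1. The median log2 change over the members tested was -0.28 with sh4, -0.19 with shAMB and -0.29 in the tumours, while that over all genes tested was -0.00, 0.10 and 0.02, and the EV medians were 0.06 for the members and 0.01 for all genes. Read against the median of all genes, the members lay 0.28 lower with sh4, 0.29 lower with shAMB and 0.31 lower in the tumours. The heatmap of log2 changes shows every tested member.

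**Figure D1:**
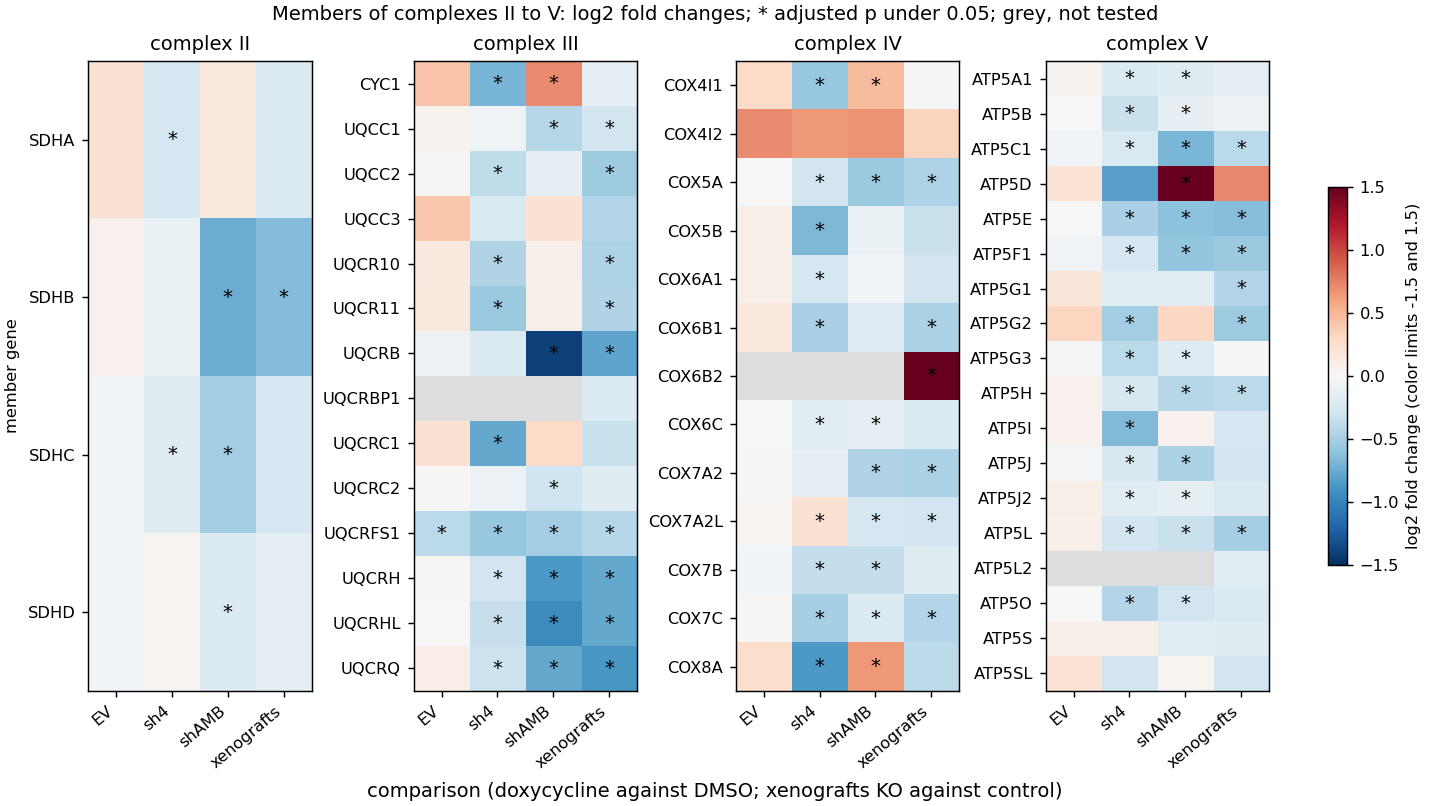
Log2 fold change of each tested member of complexes II to V (1 cell per gene and comparison, grouped by complex) for EV, sh4, shAMB and the xenografts, with an asterisk at an adjusted p under 0.05, blue for lower, red for higher and grey for not tested. The EV column holds 1 call, and the other 3 hold 33, 27 and 22 calls lower.

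The counts depended on how library trends and scale were treated. With length and GC trends removed, sh4 gave 27 members lower and 4 higher (26.7% and 27.5% of all genes), shAMB 31 lower and 2 higher (35% and 36%), and the tumours 17 lower and 2 higher (25.8% and 26.6%). The members' medians were then -0.17, -0.21 and -0.19, and 25 of the 33, 23 of the 27 and 16 of the 22 members first called lower were again called lower. On the deposited TPM, tested with limma on log2(TPM + 1), 15 members were lower and 3 higher with sh4 (9.3% and 38.9% of all genes), 16 and 10 with shAMB (18.6% and 50.4%), and 0 and 1 in the tumours (3.36% and 8.97%), where 6 members had an unadjusted p under 0.05. Of the members described in full, the sh4 calls lost on TPM were those of SDHA (-0.10), SDHC (-0.01), UQCRH (-0.11), COX5A (-0.10), ATP5F1 (-0.08), ATP5C1 (-0.05), CYC1 (-0.56) and ATP5G2 (-0.35), and the shAMB calls lost were those of SDHD (-0.04), COX7C (-0.01), COX7A2L (-0.07) and ATP5G3 (-0.01). With just the induced and uninduced sh4 groups in the fit, the sh4 calls of SDHA, SDHC, ATP5C1, COX4I1, COX8A, CYC1 and ATP5G2 were lost. The TPM scale moved the median of all genes to 0.12, 0.21 and 0.02, and the members lay 0.23, 0.21 and 0.25 below it. In the tumours 34 of 49 members had their lowest control value in replicate 2, the library with 18.2% small RNA counts. Without it 28 members were lower and 1 higher, and without KO replicate 2 there were 15 lower and 1 higher.

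By complex, the calls lower and higher with sh4 were 2 and 0 of 4 in complex II, 9 and 0 of 13 in complex III, 9 and 1 of 12 in complex IV, and 13 and 0 of 17 in complex V, with median log2 changes of -0.14, -0.34, -0.31 and -0.28. With shAMB they were 3 and 0, 7 and 1, 6 and 2, and 11 and 1, with medians of -0.36, -0.29, -0.17 and -0.18. In the tumours they were 1 and 0 of 4, 9 and 0 of 14, 5 and 1 of 13, and 7 and 0 of 18, with medians of -0.23, -0.44, -0.29 and -0.27. Complex III had the lowest median with sh4 and in the tumours, and complex II with shAMB. Complex III had the lowest in all 3 with length and GC trends removed (-0.28, -0.34 and -0.32), complex II standing at -0.25 with shAMB. Complex IV then had 6 lower and 2 higher with sh4 (median -0.12), 6 and 2 with shAMB (-0.10) and 1 and 1 in the tumours (-0.10), and complex V had 5 and 1 in the tumours (-0.14). The complexes' medians were not tested against each other.

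Summed levels per length (CPM per kilobase of gene, added over a complex's members) were compared library by library. With shAMB, complex III went from 1133 ± 30.9 to 792 ± 33.8 (SD, n = 3 each), complex II from 253 ± 10.4 to 189 ± 9.66, complex V from 4021 ± 149 to 3296 ± 198 and complex IV from 2337 ± 120 to 2113 ± 117. The sums of complex IV overlapped, with 2204 as the lowest uninduced and 2215 as the highest induced value, and those of the other 3 did not. With sh4, complex III went from 1155 ± 19.7 to 898 ± 3.10, complex IV from 2508 ± 79.7 to 1965 ± 50.2, complex V from 4005 ± 105 to 3196 ± 50.6 and complex II from 251 ± 5.73 to 232 ± 9.17, each without overlap. In the tumours, complex III went from 954 ± 105 to 659 ± 46.8 and complex II from 163 ± 18.3 to 128 ± 6.55 (n = 4 each) with no overlap, whereas complexes IV (1885 ± 217 and 1515 ± 106) and V (2881 ± 399 and 2292 ± 134) overlapped. In EV, complex III summed to 1133 ± 33.3 with DMSO and 1134 ± 7.69 with doxycycline. Complex V was higher there with doxycycline (3974.5 ± 105 and 4101 ± 37.7), without overlap but with the groups almost meeting. The highest DMSO library stood at 4054 and the lowest doxycycline library at 4060, and no complex V gene was called in EV. Complexes II (250 ± 3.40 and 255 ± 2.20) and IV (2391.5 ± 151 and 2495 ± 39.7) overlapped in EV. The plot of summed levels shows each library.

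**Figure D2:**
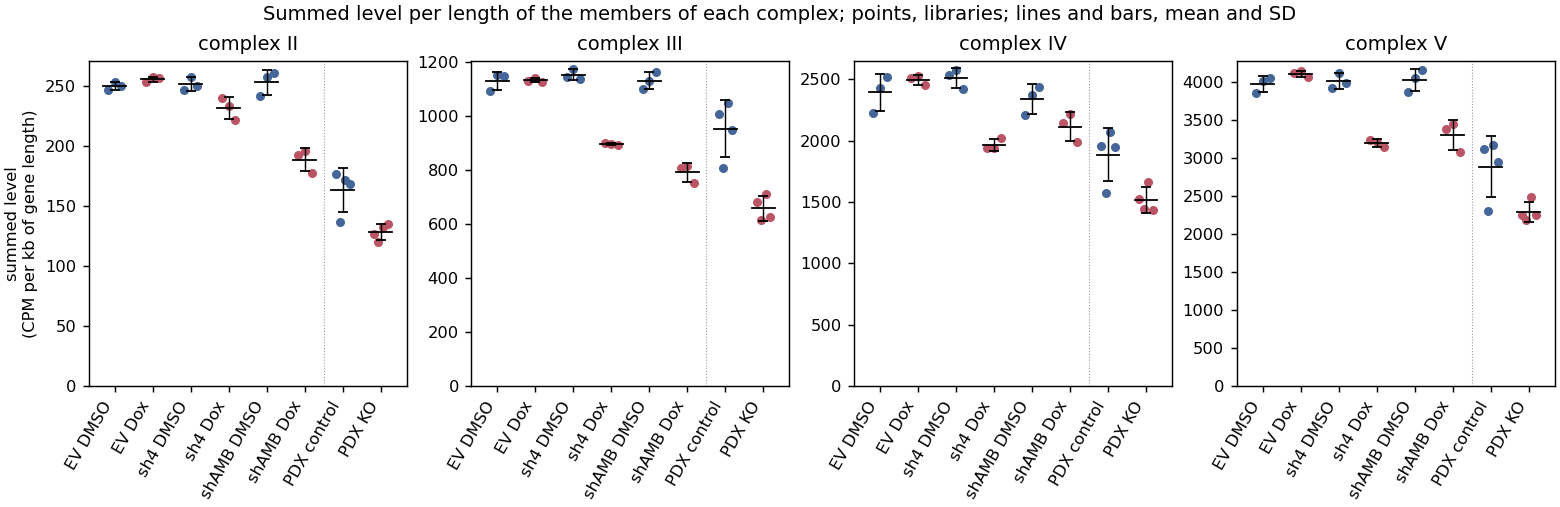
Summed level per length (CPM per kilobase, linear axis) of the members of each complex in each library, by group, with points for libraries, a horizontal line for the mean and a bar for the SD (n = 3 or 4). For complex III the 3 induced shAMB libraries sit between 754 and 816, below the uninduced libraries at 1103 to 1164.

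Complex II is anchored in the membrane by SDHC and SDHD, while SDHA carries the flavin that oxidises succinate and SDHB the iron-sulfur clusters. SDHB was measured at 104, 108 and 109 CPM in uninduced shAMB libraries and at 65.1, 67.0 and 59.9 CPM in induced ones. The groups stood well apart, and SDHB fell by 0.74 on the log2 scale (SE 0.05, adjusted p = 2.53e-09). In the tumours SDHB was 75.9, 56.0, 76.2 and 81.9 CPM in controls and 43.3, 44.5, 47.7 and 50.1 CPM in KO libraries. It was lower in every KO tumour than in any control (SDHB -0.64 ± 0.12, adjusted p = 0.00146), a call that the TPM scale did not give (-0.57). With sh4 SDHB was 100, 108 and 103 CPM and then 99.4, 98.8 and 91.4 CPM, and the change of -0.10 ± 0.05 did not pass the test (adjusted p = 0.0948).

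SDHC, a membrane anchor, was 195, 226 and 221 CPM before and 156, 152 and 140 CPM after induction of shAMB, and fell by 0.52 (SE 0.07, adjusted p = 5.12e-06). With sh4 it was 191, 202 and 207 CPM and then 188, 181 and 161 CPM (SDHC -0.18 ± 0.07, adjusted p = 0.0386). That call was lost without DMSO replicate 2 or 3 (-0.17, -0.16), without doxycycline replicate 2 or 3 (-0.20, -0.12), with DESeq2 (-0.19) and on TPM (-0.01). In the tumours SDHC was 78.2 to 104 CPM in controls and 67.0 to 85.5 CPM in KO libraries, with overlap (-0.25 ± 0.11, adjusted p = 0.104).

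SDHD, the other anchor, was 67.2, 73.7 and 75.5 CPM before and 66.0, 65.2 and 55.7 CPM after shAMB (-0.21 ± 0.07, adjusted p = 0.0187). It was not called with length and GC trends removed (SDHD -0.03, adjusted p = 0.523), nor without DMSO replicate 2 or 3 (-0.20, -0.18) or doxycycline replicate 3 (-0.14). With sh4 and in the tumours SDHD changed by 0.04 ± 0.07 and -0.13 ± 0.12, neither called. SDHA, the flavoprotein, was 113, 107 and 96.6 CPM and then 77.3, 81.6 and 104 CPM with sh4. The groups overlapped through replicate 3 of the induced libraries, and the call (SDHA -0.27 ± 0.10, adjusted p = 0.0331) was lost without DMSO replicate 1 or 2 (-0.23, -0.26) or doxycycline replicate 1 or 2 (-0.19, -0.22). SDHA did not pass the test with shAMB (0.15 ± 0.10, adjusted p = 0.189) or in the tumours (-0.20 ± 0.12, adjusted p = 0.185).

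In complex III, the members at 10 CPM or more whose mean change over the 3 settings was furthest from 0 were UQCRB, UQCRQ, UQCRH and UQCRFS1. UQCRB, a small subunit at the ubiquinone site, was 256, 267 and 247 CPM in uninduced and 104, 99.8 and 87.7 CPM in induced shAMB libraries. This was the largest fall of any member in culture, by 1.40 on the log2 scale (SE 0.08, adjusted p = 9.63e-10). In the tumours UQCRB was 163, 112, 146 and 149 CPM in controls and 76.1, 80.7, 87.9 and 84.4 CPM in KO libraries (-0.79 ± 0.11, adjusted p = 0.000333). With sh4 it was 200, 217 and 233 CPM and then 206, 193 and 166 CPM. The sh4 groups overlapped and UQCRB was not called (-0.20 ± 0.08, adjusted p = 0.0592), but it was called with length and GC trends removed (-0.36, adjusted p = 8.11e-09).

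UQCRQ, a small membrane subunit, was 66.4, 65.3 and 60.8 CPM and then 47.8, 53.6 and 51.9 CPM with sh4, and 57.0, 56.6 and 61.0 CPM and then 35.4, 34.9 and 32.4 CPM with shAMB. In the tumours it was 58.2, 49.2, 57.7 and 49.3 CPM in controls and 31.0, 25.7, 30.5 and 30.2 CPM in KO libraries. All 3 pairs of groups stood apart, and UQCRQ fell by 0.33 (adjusted p = 0.00028), 0.76 (adjusted p = 1.84e-08) and 0.87 (adjusted p = 9.23e-05), with SEs of 0.06, 0.06 and 0.10. UQCRQ had the lowest change of any member in the tumours.

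UQCRH, the acidic hinge subunit near cytochrome c1, was 282, 311 and 311 CPM and then 256, 259 and 226 CPM with sh4 (-0.29 ± 0.07, adjusted p = 0.00275, a call that TPM did not give, -0.11), and 310, 325 and 332 CPM and then 192, 182 and 157 CPM with shAMB (-0.86 ± 0.07, adjusted p = 2.28e-08). In the tumours UQCRH was 281, 194, 255 and 234 CPM in controls and 129, 133, 156 and 149 CPM in KO libraries (-0.76 ± 0.12, adjusted p = 0.000555). None of the 3 pairs overlapped. Its expressed copy UQCRHL, which can share reads with it, moved with it (-0.34, -0.96 and -0.76), so the pair cannot be counted as separate evidence.

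UQCRFS1, the Rieske iron-sulfur protein, was the member that also changed in EV. It was 197, 197 and 190 CPM with DMSO and 145, 152 and 146 CPM with doxycycline in EV (-0.40 ± 0.07, adjusted p = 0.023). That call was lost when any 1 of the 6 EV libraries was left out, with UQCRFS1 then between -0.42 and -0.39. With sh4 UQCRFS1 was 166, 184 and 191 CPM and then 129, 126 and 109 CPM (-0.57 ± 0.07, adjusted p = 4.55e-06), and with shAMB 187, 202 and 202 CPM and then 143, 141 and 128 CPM (-0.52 ± 0.07, adjusted p = 4.57e-06). Neither change differed from that in EV by test: UQCRFS1 differed by -0.17 (95% interval -0.37 to 0.03, adjusted p = 0.173) for sh4 and -0.12 (-0.32 to 0.08, adjusted p = 0.301) for shAMB. In the tumours it was 113 to 155 CPM in controls and 92.6 to 107 CPM in KO libraries (-0.43 ± 0.10, adjusted p = 0.00659). Its values lay lower wherever doxycycline was given, with or without a hairpin.

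Of the other complex III genes, the core protein UQCRC1 was lower with sh4 (-0.76) and UQCRC2 with shAMB (-0.29), and the small subunits UQCR10 and UQCR11 were lower with sh4 (-0.45 and -0.56) and in the tumours (-0.47 and -0.45). The assembly factor UQCC1 was lower with shAMB (-0.43) and in the tumours (-0.27), UQCC2 with sh4 (-0.38) and in the tumours (-0.53), and UQCC3 was called in none of these 3. The plot of single libraries shows 8 of the genes.

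**Figure D3:**
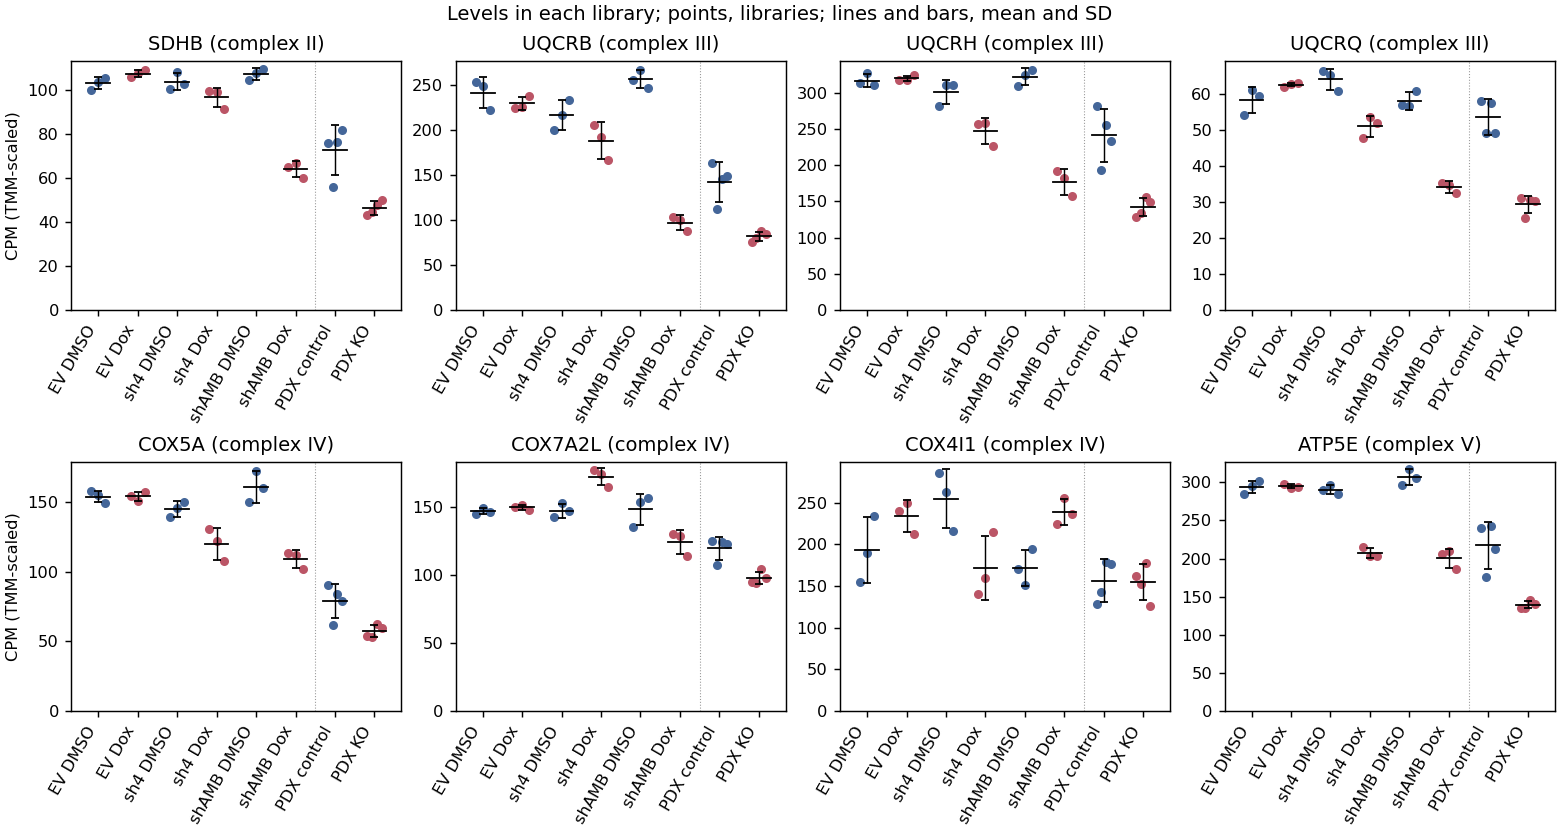
CPM of SDHB, UQCRB, UQCRH, UQCRQ, COX5A, COX7A2L, COX4I1 and ATP5E in each of the 26 libraries (points), by group, with a line at the group mean and a bar for the SD (n = 3 or 4). UQCRQ is at 32.4 to 35.4 CPM in induced shAMB and 56.6 to 61.0 CPM in uninduced shAMB libraries.

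In complex IV, the nuclear subunits surround a catalytic core made in the mitochondria. COX5A, an early-joining subunit, was 139, 146 and 150 CPM and then 130, 122 and 107 CPM with sh4 (-0.27 ± 0.07, adjusted p = 0.0037), a call lost with length and GC trends removed (COX5A -0.10, adjusted p = 0.189). With shAMB it was 150, 172 and 160 CPM and then 113, 112 and 102 CPM (-0.56 ± 0.07, adjusted p = 2.54e-06). In the tumours COX5A was 90.2, 61.9, 83.9 and 79.2 CPM in controls and 53.9, 53.4, 62.4 and 59.4 CPM in KO libraries (-0.46 ± 0.12, adjusted p = 0.00923), where control replicate 2 lay within the KO range. COX7C, a small membrane subunit, was 168, 170 and 166 CPM and then 117, 121 and 119 CPM with sh4, the groups standing far apart (-0.50 ± 0.05, adjusted p = 1.46e-06). With shAMB COX7C was 151, 165 and 162 CPM and then 141, 145 and 127 CPM (-0.21 ± 0.05, adjusted p = 0.0026), and in the tumours 116 to 166 CPM in controls and 103 to 116 CPM in KO libraries (-0.43 ± 0.11, adjusted p = 0.00923). With length and GC trends removed these last 2 calls of COX7C were lost (-0.03 and -0.18).

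COX6B1, which faces cytochrome c, was 144, 145 and 129 CPM and then 89.4, 98.6 and 110 CPM with sh4 (-0.49 ± 0.09, adjusted p = 0.000302). With shAMB COX6B1 was 113, 112 and 128 CPM and then 102, 109 and 99.2 CPM. These groups did not overlap, yet the change of -0.19 ± 0.09 missed the threshold (adjusted p = 0.0652) and passed it with length and GC trends removed (COX6B1 -0.42, adjusted p = 4.48e-07). In the tumours it was 92.4 to 123 CPM in controls and 72.6 to 91.4 CPM in KO libraries (-0.48 ± 0.11, adjusted p = 0.00524), which with the trends removed was not called (-0.24, adjusted p = 0.134). COX5B, a zinc-binding subunit, was 28.7, 25.2 and 23.9 CPM and then 14.5, 16.1 and 18 CPM with sh4 (-0.68 ± 0.10, adjusted p = 5.4e-05) and was called neither with shAMB (-0.09 ± 0.10) nor in the tumours (-0.34 ± 0.17). With the trends removed COX5B was lower with both hairpins, with fitted changes of -0.30 (adjusted p = 0.000594) and -0.32 (adjusted p = 0.000227).

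Complex V has a catalytic F1 head and a membrane Fo part. ATP5E (now ATP5F1E), the epsilon subunit of the F1 stalk, was 290, 296 and 284 CPM and then 215, 204 and 203 CPM with sh4 (-0.49 ± 0.04, adjusted p = 3.76e-07), and 296, 317 and 306 CPM and then 206, 209 and 186 CPM with shAMB (-0.61 ± 0.04, adjusted p = 1.07e-08). In the tumours ATP5E was 240, 176, 242 and 212 CPM in controls and 136, 136, 146 and 140 CPM in KO libraries (-0.64 ± 0.11, adjusted p = 0.00076). None of the pairs overlapped, and ATP5E was called in all 3 with length and GC trends removed (-0.27, -0.40 and -0.38). In EV it stood at 285 to 302 CPM with DMSO and 293 to 298 CPM with doxycycline.

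ATP5F1 (now ATP5PB), the b subunit of the outer stalk, was 455, 494 and 496 CPM and then 432, 409 and 376 CPM with sh4 (-0.25 ± 0.06, adjusted p = 0.00477, a call that TPM did not give, -0.08), and 505, 573 and 530 CPM and then 379, 368 and 327 CPM with shAMB (-0.58 ± 0.06, adjusted p = 8.94e-07). In the tumours ATP5F1 was 348 to 487 CPM in controls and 276 to 313 CPM in KO libraries (-0.56 ± 0.11, adjusted p = 0.00232). ATP5L (now ATP5MG), the g subunit, was 94.0 to 100 CPM and then 76.9 to 83.7 CPM with sh4 (-0.28 ± 0.05, adjusted p = 0.000601), 89.8 to 99.4 CPM and then 70.4 to 75.8 CPM with shAMB (-0.34 ± 0.05, adjusted p = 6.3e-05), and 55.6 to 71.9 CPM against 42.9 to 50.4 CPM in the tumours (-0.50 ± 0.10, adjusted p = 0.00272). Neither ATP5F1 nor ATP5L overlapped between any of these groups.

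ATP5C1 (now ATP5F1C), the gamma subunit that turns inside the F1 head, was 234, 274 and 246 CPM and then 165, 163 and 143 CPM with shAMB (-0.68 ± 0.08, adjusted p = 3.69e-06). With sh4 ATP5C1 was 206, 230 and 238 CPM and then 209, 198 and 169 CPM. These overlapped, and the call (-0.23 ± 0.08, adjusted p = 0.0404) was lost without DMSO replicate 2 or 3 (-0.21, -0.18) or doxycycline replicate 2 or 3 (-0.25, -0.14). In the tumours ATP5C1 was 198, 130, 176 and 170 CPM in controls and 117, 123, 136 and 134 CPM in KO libraries (-0.40 ± 0.12, adjusted p = 0.0215), and the call was lost without control replicate 3 or KO replicate 2 (-0.39 in both). The F1 head subunits ATP5A1 and ATP5B fell by 0.20 and 0.34 with sh4 and by 0.18 and 0.13 with shAMB. They were not called in the tumours (-0.13 and -0.07).

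The lists of lower calls overlapped in part. Of the 33 members lower with sh4 and the 27 lower with shAMB, 20 were in both lists (60.6% and 74.1% of them), where 58.7% of all 46 tested members were lower with shAMB and 71.7% with sh4. Of the 22 lower in the tumours, 16 were in the sh4 list (48.5% of that list, 72.7% of the tumours' list) and 16 in the shAMB list (59.3% and 72.7%), where 44.9% of all 49 tested members were lower in the tumours. In all 3 were 11 members: UQCRFS1, UQCRH, UQCRHL and UQCRQ of complex III, COX5A and COX7C of complex IV, and ATP5C1, ATP5E, ATP5F1, ATP5H and ATP5L of complex V. No complex II gene was among them. The overlaps of the sh4 list with either other list lay close to the shares over all tested members. The share of all genes lower in all 3 was not computed, so the 11 are listed and not read as an excess. With length and GC trends removed 10 were lower in all 3, which again held UQCRFS1, UQCRH, UQCRQ, ATP5C1, ATP5E, ATP5F1 and ATP5L and added UQCRB, UQCRC1 and UQCC2.

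A few members went against the rest. COX7A2L, named for its likeness to COX7A2 and known as a factor that joins complexes III and IV into supercomplexes, was 143, 153 and 147 CPM and then 177, 175 and 165 CPM with sh4. It was the member called higher there (0.23 ± 0.06, adjusted p = 0.0051), and also with the trends removed (COX7A2L 0.35, adjusted p = 5.44e-05). With shAMB COX7A2L was 135, 153 and 157 CPM and then 130, 129 and 114 CPM and fell (-0.25 ± 0.06, adjusted p = 0.00121), a call lost on TPM (-0.07). In the tumours it was 107 to 125 CPM in controls and 94.5 to 105 CPM in KO libraries (-0.29 ± 0.08, adjusted p = 0.0145), a call lost without KO replicate 2 (-0.27) and with the trends removed (-0.14).

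COX4I1, the main form of a regulatory subunit, was 286, 263 and 216 CPM and then 141, 159 and 214 CPM with sh4 (-0.57 ± 0.16, adjusted p = 0.00917). With shAMB COX4I1 went the other way, from 170, 152 and 195 CPM to 224, 255 and 236 CPM (0.47 ± 0.16, adjusted p = 0.0166). The shAMB call was lost without DMSO replicate 2 or doxycycline replicate 2 (0.38, 0.42), and both directions kept their call with the trends removed (COX4I1 -0.35, adjusted p = 0.00166, and 0.37, adjusted p = 0.000622). In the tumours COX4I1 was 128 to 179 CPM in controls and 126 to 177 CPM in KO libraries (-0.02 ± 0.13).

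COX8A, a small membrane subunit of complex IV, was 84.9, 67.8 and 51.1 CPM and then 27.2, 30.3 and 54.8 CPM with sh4 (-0.86 ± 0.25, adjusted p = 0.0109), and 35.8, 33.0 and 40.9 CPM and then 46.8, 60.8 and 64.4 CPM with shAMB (0.65 ± 0.25, adjusted p = 0.0303). Induced sh4 replicate 3 lay inside the uninduced range, and the sh4 call of COX8A was lost without doxycycline replicate 1 or 2 (-0.68, -0.73). The shAMB call was lost without DMSO replicate 1 or 2 (0.63, 0.58) or doxycycline replicate 2 or 3 (0.60, 0.56), and with DESeq2 (0.57).

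CYC1, the cytochrome c1 subunit, was 89.6, 68.7 and 54.0 CPM and then 29.4, 37.4 and 64.7 CPM with sh4 (-0.69 ± 0.25, adjusted p = 0.0382), and 38.3, 29.9 and 40.2 CPM and then 49.4, 61.7 and 66.5 CPM with shAMB (0.71 ± 0.25, adjusted p = 0.0221). With length and GC trends removed CYC1 was lower with sh4 (-0.35, adjusted p = 9.99e-06) and was not called with shAMB (0.01, adjusted p = 0.924). Its sh4 call was lost without DMSO replicate 1 or 2 (-0.51, -0.72) or doxycycline replicate 1 or 2 (-0.48, -0.59), and its shAMB call without DMSO replicate 2 (0.59) or doxycycline replicate 2 or 3 (0.68, 0.62). ATP5D, the delta subunit of F1 by its current name ATP5F1D, was counted at 0.277 to 2.73 CPM in all 26 libraries, and its call higher with shAMB (1.53 ± 0.54, adjusted p = 0.0203) was lost with the trends removed (0.28, adjusted p = 0.318), without DMSO replicate 2 (1.26) and without doxycycline replicate 3 (1.13).

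These members differed in GC content. Over the 23 tested members above the members' median GC of 49.3%, the median log2 change with shAMB was 0.04, and over the other 23 it was -0.45. Over all genes the medians with shAMB were 0.81 in the 20% richest and -0.15 in the 20% poorest in GC. With sh4 the medians were -0.34 above and -0.27 below the members' median GC, where the 20% of all genes richest and poorest in GC had -0.27 and 0.12. In the tumours, split at 48.9%, they were -0.28 and -0.43, where the 20% of all genes richest and poorest in GC had 0.12 and 0.03. With the trends removed the medians above and below were -0.19 and -0.31 with shAMB, -0.14 and -0.20 with sh4, and -0.15 and -0.26 in the tumours. Members were also short, with a median gene length of 1020 bases against 2948 over all genes tested in culture.

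**Figure D4:**
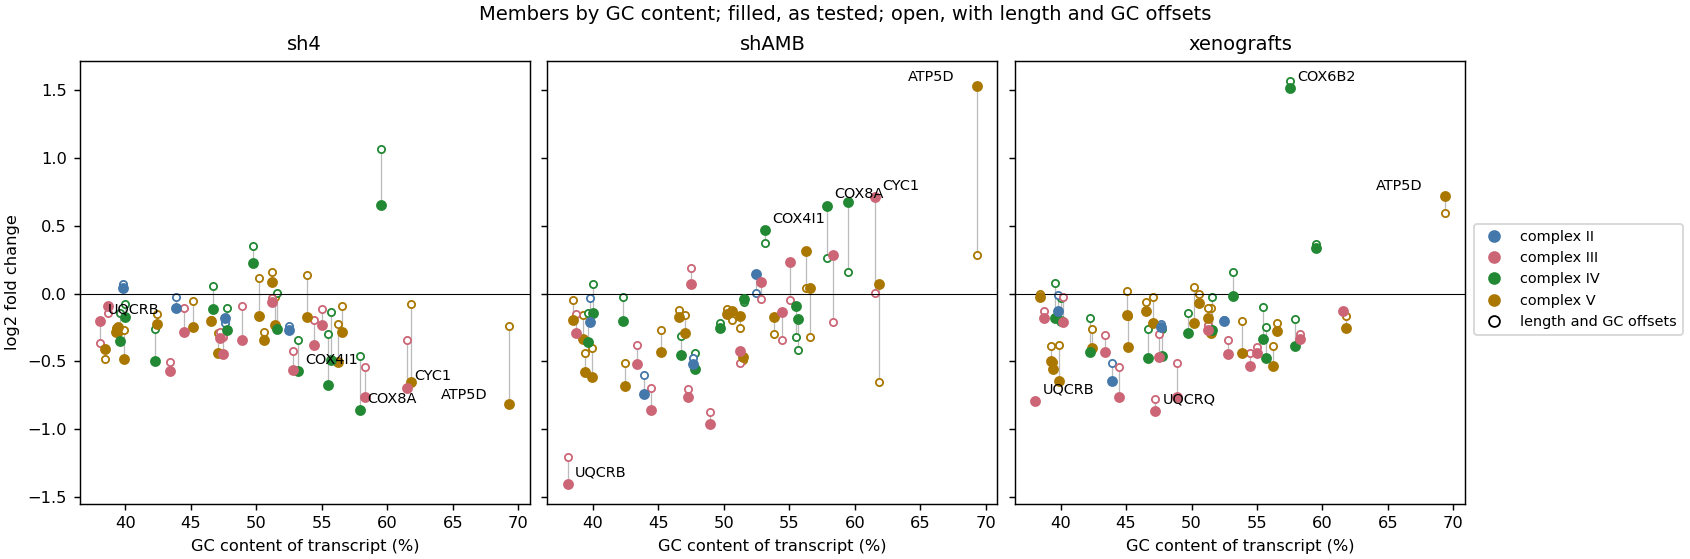
Log2 fold change of each tested member (points, coloured by complex) against the GC content of its transcript in percent, for sh4, shAMB and the xenografts, with filled points for the values as tested and open points, joined to them, for those with length and GC offsets. With shAMB the members above 49.3% GC centre on 0.04 and the others on -0.45.

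Tested directly against the change in the EV line, 27 members had a lower effect with sh4 (14.7% of all genes lower, 17.8% higher) and 24 with shAMB (21.7% lower, 23.7% higher), and none had a higher one in either. Both comparisons use the same EV libraries. For sh4 the lower members were 1 of complex II, 7 of III, 8 of IV and 11 of V, and for shAMB 2, 6, 6 and 10. With edgeR at an unadjusted p under 0.05 there were 32 members for sh4 and 25 for shAMB in either direction, and DESeq2 called 26 and 25, all lower. With the length and GC trends removed, sh4 gave 18 lower and 1 higher (21.8% and 21.5% of all genes), with 1, 7, 3 and 7 lower in complexes II to V, and the members' median went from -0.35 to -0.12. For shAMB it gave 23 lower and none higher (29.2% and 29%), with medians of -0.23 in both.

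The effects of the hairpins differed from each other in 29 members, 14 with a higher and 15 with a lower change with sh4 than with shAMB (27.8% and 33.1% of all genes). The change in UQCRB was 1.20 higher with sh4 (SE 0.12, adjusted p = 4.28e-07) and that in SDHB 0.64 higher (SE 0.07, adjusted p = 1.09e-06). UQCRH (0.58 ± 0.09, adjusted p = 0.000101) and UQCRQ (0.44 ± 0.08, adjusted p = 0.000333) also fell by more with shAMB. In the other direction, COX8A (-1.51 ± 0.35, adjusted p = 0.00174), CYC1 (-1.41 ± 0.36, adjusted p = 0.00341) and COX4I1 (-1.04 ± 0.23, adjusted p = 0.00105) were lower with sh4. With the length and GC trends removed the split between higher and lower was 21 and 11. COX5B and COX6B1 changed sign there (-0.58 to 0.02, and -0.30 to 0.28). For ATP5E and ATP5L the effects differed by 0.13 (95% interval -0.01 to 0.26) and 0.05 (-0.11 to 0.22), which edgeR did not call.

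Before induction, no member was called between sh4 and EV or between shAMB and EV with edgeR, in comparisons that called 1.12% and 1.52% of all genes. At an unadjusted p under 0.05 there were 11 members for sh4 and 0 for shAMB, and DESeq2 called 0 in both. With the trends removed CYC1 was higher in uninduced sh4 than in uninduced EV (0.21, adjusted p = 0.0192).

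The levels per length set the complexes and isoforms in order. In uninduced EV the highest were ATP5B, the catalytic beta subunit, at 701 ± 5.09 CPM per kilobase (SD, n = 3), ATP5E at 670 ± 19.0 and UQCRH at 505 ± 14.4. The 3 libraries of each gene lay above those of the next. This order depends on the measure of level. In every control tumour ATP5B stood above ATP5E per kilobase and below it on TPM. In control replicate 1, ATP5B and ATP5E were 599 and 546 CPM per kilobase, and 334 and 475 TPM. Within complex II the order was SDHB (89.6 ± 2.45), SDHC (75.1 ± 3.68), SDHD (53.5 ± 1.04) and SDHA (31.6 ± 2.88). The tissue-restricted second forms COX4I2, COX6B2 and COX8C lay far below COX4I1, COX6B1 and COX8A. COX4I1 stood at 234 ± 48.2 CPM per kilobase and COX4I2 at 0.294 ± 0.203, COX6B1 at 209 ± 25.8 and COX6B2 at 0.0365 ± 0.0183, COX8A at 91.9 ± 24.1 and COX8C at 0.0855 ± 0.0671. COX6A1 stood at 280 ± 26, COX7B at 410 ± 13.8 and COX7A2 at 227 ± 4.63, while COX6A2 and COX7B2 had a count of 0 in all 26 libraries and COX7A1 at most 4 counts in any.

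COX6B2, the testis form of COX6B1, passed the filter only in the tumours. It was 0.171, 0.339, 0.376 and 0.268 CPM in controls and 0.854, 1.09, 0.965 and 0.404 CPM in KO libraries, from at most 62 counts. It was the member called higher there (1.52 ± 0.37, adjusted p = 0.00746). The other genes under the filter in culture were COX8C, ATP5EP2, UQCRBP1 and ATP5L2, with at most 3, 2, 7.15 and 1 expected counts, and in the tumours COX8C and ATP5EP2 with at most 7 and 4.

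Subunit c, the rotor ring of complex V, is made as 1 mature protein by 3 genes. In uninduced EV, ATP5G1 stood at 273 ± 30.9, ATP5G2 at 231 ± 49.9 and ATP5G3 at 96.1 ± 0.848 CPM per kilobase. ATP5G1 and ATP5G2 did not differ beyond their spread and ATP5G3 lay below both on this measure. This order too depends on the measure, as the gene lengths used were 581, 884 and 2671 bases. Averaged over all culture libraries and not divided by length, ATP5G3 was highest at 240 CPM, with ATP5G2 at 219 and ATP5G1 at 158 CPM. ATP5G3 was 237, 257 and 258 CPM and then 198, 188 and 181 CPM with sh4 (-0.41 ± 0.05, adjusted p = 2.18e-05), and fell by 0.20 with shAMB (adjusted p = 0.00509), which was lost with the trends removed (-0.05). In the tumours ATP5G3 did not change by test (-0.02 ± 0.12), with 121 to 176 CPM in controls and 142 to 167 CPM in KO libraries. ATP5G1 and ATP5G2 were lower in the tumours (-0.44 ± 0.12, adjusted p = 0.0143, and -0.54 ± 0.14, adjusted p = 0.0117), at 82.1 to 123 against 70.2 to 84.2 CPM and at 178 to 238 against 118 to 172 CPM. The ATP5G1 call was lost with the trends removed (-0.20). With sh4, ATP5G2 went from 302, 276 and 228 to 146, 185 and 235 CPM (-0.51 ± 0.17, adjusted p = 0.027), a call lost without DMSO replicate 1 or 2 (-0.43, -0.49) or doxycycline replicate 1 or 2 (-0.36, -0.49). ATP5G1 with sh4 and shAMB (both -0.17 ± 0.08) and ATP5G2 with shAMB (0.31 ± 0.17) were not called. The plot of levels per length sets these genes side by side.

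**Figure D5:**
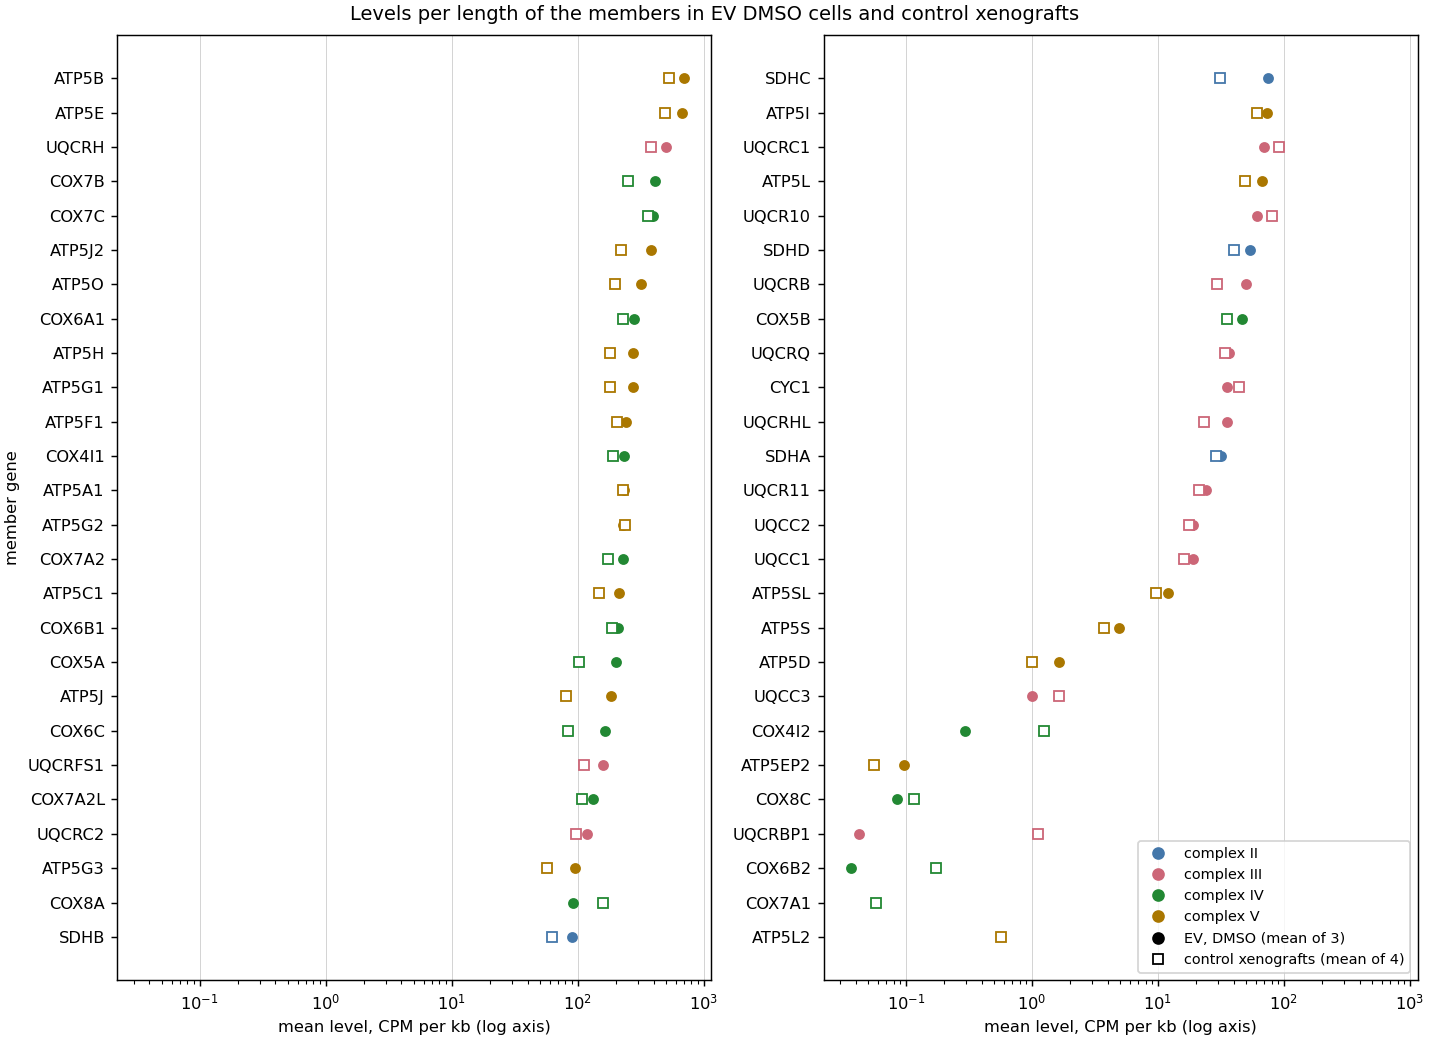
Level per length (CPM per kilobase, logarithmic axis) of each member in uninduced EV cells (filled circles, mean of 3) and in control xenografts (open squares, mean of 4), coloured by complex and ordered by the EV level, without members at 0 in a group. COX4I2, COX6B2, COX7A1 and COX8C lie near or under 1 CPM per kilobase, while ATP5B, ATP5E and UQCRH lie above 380 in both.

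Genes that assemble or serve the complexes were tested beside their subunits. Of 38 listed assembly factors of complexes II to V, 36 were in the tables and 35 tested in each fit. None was called in EV by edgeR, while 13 were lower and 6 higher with sh4 (median -0.04), 16 and 3 with shAMB (-0.18), and 15 and 1 in the tumours (-0.26). Of all genes, 18% were lower and 22.9% higher with sh4, 28.4% and 37.6% with shAMB, and 19.9% and 21.2% in the tumours. COX20, which handles a core subunit of complex IV, was lower in all 3 (-0.43, -0.66 and -0.83, adjusted p = 0.000197, 1.15e-06 and 0.000236). So was ATPIF1, the inhibitor of complex V run in reverse (-0.66, -0.63 and -0.43, adjusted p = 5.77e-09, 3.77e-09 and 0.0029). Of CYCS (cytochrome c), NDUFA4, HIGD1A and HIGD2A, the last 2 being supercomplex-associated proteins, 3 were lower with sh4, 4 with shAMB and 1 in the tumours, and none was called in EV. HIGD1A fell by 2.23 with sh4 (adjusted p = 1.03e-10) and by 0.34 with shAMB (adjusted p = 0.00429), and was -0.14 in the tumours (adjusted p = 0.35). HIGD2A fell by 0.56, 0.97 and 1.31 in the 3 (adjusted p = 0.000624, 1.46e-06 and 2.65e-05).

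Of 13 regulators of these genes' transcription, 2 were higher and 6 lower with sh4 (22.9% and 18% of all genes), 5 and 2 with shAMB (37.6% and 28.4%), and 2 and 1 in the tumours (21.2% and 19.9%), with medians of -0.23, 0.08 and 0.07. PPARGC1A, a coactivator of mitochondrial genes, was lower with sh4 (-0.78, adjusted p = 5.09e-07) and higher with shAMB (0.31, adjusted p = 0.00139) and in the tumours (0.54, adjusted p = 0.00919). MYCN, the amplified oncogene of these cells, was 2036 to 2323 CPM and then 3202 to 4090 CPM with sh4, 2085 to 2170 CPM and then 5944 to 6561 CPM with shAMB, and 2433 to 2887 CPM against 6112 to 8211 CPM in the tumours. It rose by 0.68 ± 0.08 (adjusted p = 4.62e-06), 1.57 ± 0.08 (adjusted p = 1.8e-10) and 1.46 ± 0.14 (adjusted p = 3.14e-05) and was not called in EV (0.07 ± 0.08). The part of MYCN, PPARGC1A or any other regulator in the members' values was not tested.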

How the data were processed

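Expression was measured by RNA sequencing of 26 libraries of human KELLY cells in 8 groups, named in the text after the titles and treatment labels. Per the labels the kit was SMARTer Stranded Total RNA-seq v2, although the molecule is given as polyA RNA, with sequencing on a NovaSeq. The authors mapped reads with STAR, SAMtools and RSEM to hg38. Versions, annotation, strand setting and the handling of mouse reads are not given for these libraries in the sources used here. The study's methods give versions of these tools for its mouse ganglia libraries. RSEM splits reads among genes, so 30 of the 54 members, which have named pseudogene copies, and 11, with over 10% antisense exon overlap, are less certain.

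The authors deposited 3 kinds of value: expected counts per gene (not normalised), TPM (scaled for gene length and library by RSEM) and a gene length. The culture and xenograft tables were scaled and tested separately. In the culture column names, Neg was taken to mean DMSO and Pos to mean doxycycline. Expected counts were rounded and tested with edgeR 4.0.16 in R 4.3.3 (TMM factors, filterByExpr, quasi-likelihood F test, two-sided, Benjamini-Hochberg over all genes tested, called at an adjusted p under 0.05), with the 18 culture libraries in 1 fit and the 8 xenograft libraries in another, and 9 comparisons in all. CPM was computed on TMM-scaled totals, and a level per length is CPM per kilobase of the deposited gene length. Prior count was 2 in GC-trend fits. The scripts were tested on simulated counts with known changes.

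The members, the lists of assembly factors, carriers, regulators, mitochondrial genes, cell type markers and motifs, and the tests were chosen with earlier results of these data known. Named with values were the complex II genes, the 4 members of each other complex at 10 CPM or more with the mean change over sh4, shAMB and xenografts furthest from 0, members at 1 CPM or more changed against the majority, subunit c and isoform genes, and members changed in EV. UQCRHL, UQCRC1, UQCRC2, UQCR10, UQCR11, UQCC1 to UQCC3, ATP5A1, ATP5B and single genes of the pathway lists were named after their values were seen. Alternatives were RLE factors, no filter, DESeq2 1.42.0, a replicate block, length and GC offsets per library, the compared groups alone, each library left out, and limma 3.58.1 on log2(TPM + 1), the last chosen after seeing the data. Promoter letters came from RefSeq, and gene overlaps from GENCODE release 44. Some genes of the fixed neuroblastoma marker list are not reported here, and the summed level of that list was computed without them.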

Additional observations from a re-analysis of the deposited data

Results flagged for a closer look

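Of 48 groups of 4 tumours examined over the 24 members described in full, 2 had a library far from the other 3 by Dixon's criterion, where chance gives about 1 in 20. UQCRQ was lowest at 25.7 CPM in KO replicate 2, and COX7A2L was lowest at 107 CPM in control replicate 2.

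The 24 were chosen in part by the size or direction of their changes with sh4, shAMB and in the tumours. The counts below are therefore not a measure of all members. For 15 of the 24 the change with sh4 differed from that in EV by edgeR's test of the difference, each being lower with sh4. There 14.7% of all genes were lower and 17.8% higher. The log2 differences were -0.49 in SDHA, -0.43 in UQCRQ, -0.30 in UQCRH, -1.13 in CYC1, -0.27 in COX5A, -0.77 in COX5B, -0.64 in COX6B1, -0.52 in COX7C, -0.85 in COX4I1, -1.12 in COX8A, -0.49 in ATP5E, -0.35 in ATP5L, -0.36 in ATP5G1, -0.83 in ATP5G2 and -0.38 in ATP5G3. For 14 the change with shAMB differed from that in EV, also downward, in a comparison with the same EV libraries that called 21.7% of all genes lower and 23.7% higher. Those differences were -0.80 in SDHB, -0.48 in SDHC, -1.33 in UQCRB, -0.87 in UQCRQ, -0.88 in UQCRH, -0.56 in COX5A, -0.34 in COX6B1, -0.22 in COX7C, -0.28 in COX7A2L, -0.62 in ATP5E, -0.53 in ATP5F1, -0.64 in ATP5C1, -0.41 in ATP5L and -0.35 in ATP5G1. Leaving out 1 library ended some of these calls. For sh4 against EV these were UQCRH without EV DMSO replicate 1 (-0.29) or sh4 DMSO replicate 2 (-0.28), COX8A without EV DMSO replicate 1, EV doxycycline replicate 2, sh4 DMSO replicate 1 or sh4 doxycycline replicate 1 or 2 (-1.07 to -0.94), and CYC1 without any of those or without EV DMSO replicate 2 or EV doxycycline replicate 1 (-1.10 to -0.91). COX5A lost its call without EV DMSO replicate 2 or 3, EV doxycycline replicate 1 or 3, sh4 DMSO replicate 2 or 3 or sh4 doxycycline replicate 2 or 3 (-0.29 to -0.20), and ATP5G1 without EV DMSO or doxycycline replicate 1 or 2, sh4 DMSO replicate 2 or sh4 doxycycline replicate 1 or 2 (-0.35 to -0.28). For shAMB against EV, COX6B1 lost it without EV DMSO or doxycycline replicate 1 or 2, shAMB DMSO replicate 3 or shAMB doxycycline replicate 1 or 3 (-0.34 to -0.26), COX7C without EV DMSO replicate 1, EV doxycycline replicate 2, shAMB DMSO replicate 2 or shAMB doxycycline replicate 3 (-0.21 to -0.17), and ATP5G1 without shAMB DMSO or doxycycline replicate 3 (-0.29 and -0.31). With length and GC trends removed, UQCRH (-0.08), COX5A (-0.04), COX6B1 (-0.10), COX5B (-0.20) and ATP5G1 (0.11) were not called for sh4 against EV, nor COX7C (-0.02) and COX7A2L (-0.17) for shAMB against EV. On TPM, SDHA (-0.28), UQCRH (-0.08), COX5A (-0.06), ATP5L (-0.14), ATP5G1 (-0.14) and ATP5G3 (-0.16) were not called for sh4 against EV, nor COX6B1 (-0.12), COX7C (0.014), COX7A2L (-0.06) and ATP5G1 (-0.13) for shAMB against EV. COX5A was also lost with DESeq2 and RLE factors (-0.26 in both), and COX8A and CYC1 with just the compared groups in the fit (-1.12 in both) for sh4 against EV.

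Between the hairpins, 27.8% of all genes had a higher and 33.1% a lower change with sh4. The change with sh4 differed from that with shAMB in 20 of the 24 members. It was higher with sh4 in SDHB (0.64), SDHC (0.34), SDHD (0.25), UQCRB (1.20), UQCRQ (0.44), UQCRH (0.58), COX5A (0.29), COX7A2L (0.48), ATP5F1 (0.33) and ATP5C1 (0.45). It was lower with sh4 in SDHA (-0.41), CYC1 (-1.41), COX5B (-0.58), COX6B1 (-0.30), COX7C (-0.29), COX4I1 (-1.04), COX8A (-1.51), ATP5D (-2.35), ATP5G2 (-0.82) and ATP5G3 (-0.21). Here SDHD lost its call without sh4 DMSO replicate 1, 2 or 3, sh4 doxycycline replicate 1 or 2, shAMB DMSO replicate 2 or 3 or shAMB doxycycline replicate 3 (0.18 to 0.27). COX6B1 lost it without replicate 1 or 2 of any of the 4 groups (-0.31 to -0.23), and ATP5G3 without sh4 DMSO or doxycycline replicate 2 or 3, shAMB DMSO replicate 1 or shAMB doxycycline replicate 1 or 2 (-0.20 to -0.15). SDHD (0.10), COX5B (0.016) and ATP5D (-0.52) were not called with length and GC trends removed, and COX6B1 was called the other way (0.28). COX6B1 (-0.23) and ATP5G3 (-0.14) were not called with DESeq2 or RLE factors, nor SDHD (0.27), COX6B1 (-0.28) and ATP5G3 (-0.19) without the filter on low counts. SDHD (0.25) and ATP5G3 (-0.21) were lost with just the compared groups in the fit, and SDHD with the replicate block (0.25).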

How the results depend on the processing

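Counts of members called kept within 1.5 times of their value under RLE factors, no filter and DESeq2 in all 9 comparisons. With sh4 the count of 34 became 19 with only the compared groups in the fit and 18 on TPM. On TPM the count was 14 for sh4 against EV, 13 for shAMB against EV and 1 in the tumours. With length and GC offsets, alone or with the replicate block, 1 member differed between uninduced sh4 and EV. Leaving out single libraries gave 24 to 33 with sh4, 24 to 31 with shAMB, 18 to 29 for sh4 against EV, 18 to 26 for shAMB against EV, 24 to 33 for sh4 against shAMB, 16 to 29 in the tumours, and 0 throughout in EV and in both uninduced comparisons. Of 103 named calls, 98 were kept with DESeq2, 82 with the offsets and 66 on TPM. Leaving out single libraries kept 832 of 942. Offsets reversed COX6B1 (0.28) and COX5B (0.016) for sh4 against shAMB and ATP5G1 (0.11) for sh4 against EV, where block and offsets together gave 0.28, 0.018 and 0.11, and TPM reversed COX7C (0.014) for shAMB against EV. The TPM medians turned above 0 for complex II with sh4 (0.03) and complexes IV (0.02) and V (0.0029) with shAMB. The cause was not tested. Deviations of same-numbered libraries from their group means correlated at r from -0.60 to 0.37. Each library's own GC trend enters these values, so they do not settle whether the numbers pair the libraries. With the replicate block the counts were 34 with sh4, 31 with shAMB, 25 and 24 against EV, 28 between hairpins, 19 in the tumours, 1 in EV and 0 uninduced, and 100 of 103 named calls were kept. The values of ATP5D, COX4I2 and COX6B2 rest on few counts.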
